A study of Caenorhabditis elegans with 16 samples.

Results

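The abu and pqn genes of C. elegans, which encode proteins rich in glutamine and asparagine, were followed in whole adults with and without ER stress. The members were all rows of the deposited expression table whose name begins with abu- or pqn-, which gave 29 genes of 8348 rows, 8 named abu- and 21 named pqn-. Within the family the names alone chose the rows, without any measured value, but the family was taken up with earlier results of these data known. The animals were WT (N2) or osm-3(dh441)IV mutants at day 1 of adulthood, and each genotype was kept for 6 hr on vehicle plates or on plates with 10 µg/mL tunicamycin (TM), a drug that blocks N-glycosylation in the ER. Each of the 4 groups (WT vehicle, WT TM, osm-3 vehicle and osm-3 TM) held 4 libraries of whole animals, 16 in all. The osm-3 gene encodes a kinesin of the sensory cilia, and the mutants carried a single allele with a premature stop, so that the allele and its strain background cannot be told apart. The libraries came from pools of animals, and in such bulk samples fewer cells of a type and less RNA per cell cannot be told apart.

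The abu genes take their name from a screen for genes activated in blocked unfolded protein response, that is, genes that rose with TM in animals in which the ER unfolded protein response (UPR) was blocked. Many abu and pqn proteins were later placed in the cuticle that lines the pharynx, and transcripts of this kind cycle with the larval molts. The pqn name, for prion-like Q/N-rich domain, rests on amino acid composition only, so pqn genes share no single function, and the role of most members used here is not known well enough to be stated. The names occur 72 times in the annotation (15 abu- and 57 pqn-), and the 43 genes that are not rows of the table were not analysed here.

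Depth limited which members could be compared. The table held 4173301 to 8144875 reads per library on named genes, and a count of 0 reads in a library allows up to 3 reads, which is the same in every library. This floor, like the binomial interval given below, covers counting error only. Genes were tested where the mean log2 value over all libraries lay at least 1 above the table minimum of 6.68, the value of a gene with no reads. Of the 29 members, 10 passed, all of them pqn genes, and these are a subset of the family and not all members. The other 19, among them all 8 abu genes, fell below. Just inside the limit lay pqn-8, at 1.02 above the minimum, and just outside lay pqn-25 at 0.86, pqn-36 at 0.84, pqn-32 at 0.75 and pqn-37 at 0.75.

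Marker genes of several tissues were read in the libraries, but the marker lists were covered only in part. Rows of the table were 4 of 10 listed intestine genes, 5 of 10 germline, 2 of 5 muscle and 2 of 6 neuron genes. They were also 5 of 13 pharynx genes and 8 of 16 molting genes. All of these rows passed the filter for intestine (vit-2 and vit-5 among them), germline, muscle and neurons, whereas only 2 of 5 pharynx genes and 5 of 8 molting genes did so. Of 10 UPR genes tested, 6 rose with TM in WT and 0 in osm-3 mutants (limma, adjusted p under 0.05), with a median log2 difference of 0.74 in WT and 0.04 in the mutants, so that the treatment could be seen in the WT libraries in which the members were read. Library WT TM 4 stood apart. It held reads on 92.7% of 946 genes that had a mean of under 1 read in the other 15 libraries, where the same measure for each other library lay between 16.9% and 45.4%.

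The abu genes were close to silent in these adults. Summed over the 8 genes, the 4 WT vehicle libraries held 13, 20, 7 and 25 reads. The 4 osm-3 vehicle libraries held 32, 24, 3 and 14 reads. With TM, the WT libraries held 11, 9, 3 and 164 reads and the osm-3 libraries 76, 12, 6 and 19 reads. The reads of all 4 groups overlapped, and 2 TM libraries, WT TM 4 and osm-3 TM 1, lay above every other library. At most 0.00244% of the reads of a library fell on the abu genes.

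**Figure D1:**
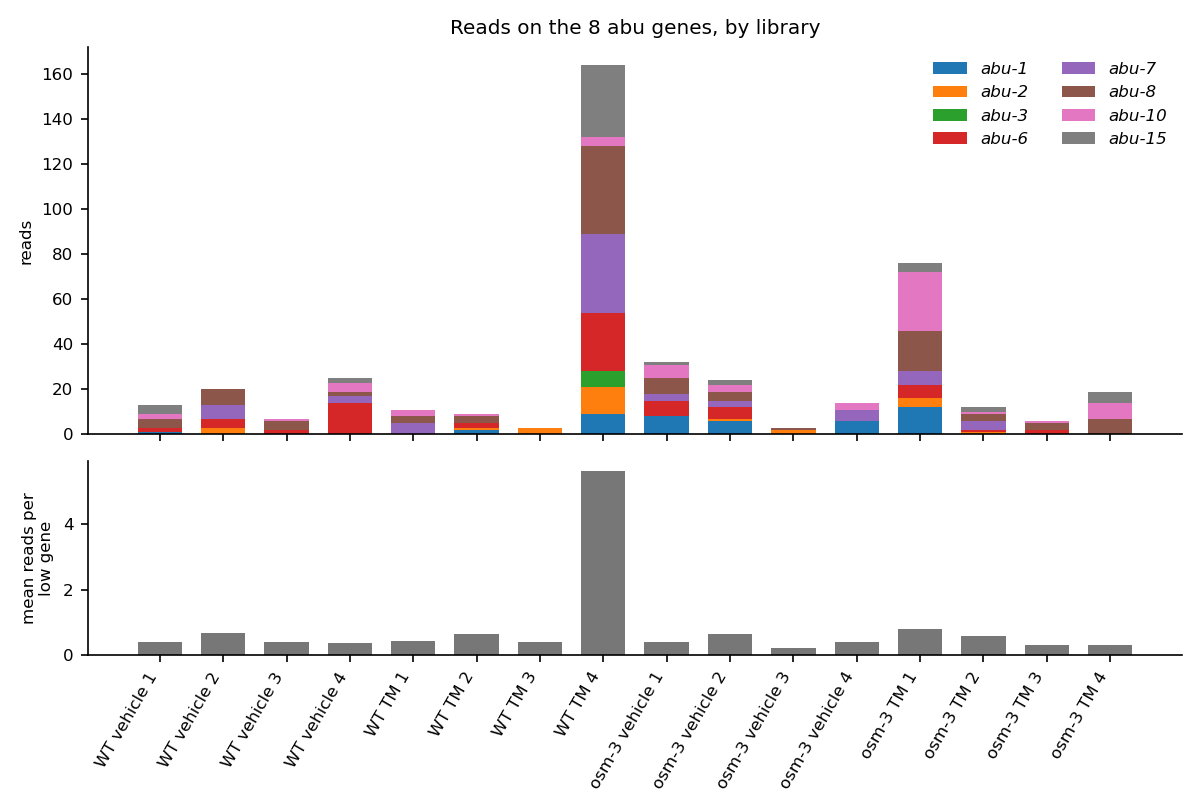
Reads on the 8 abu genes in each of the 16 libraries (upper panel, stacked by gene) and mean reads per gene over genes that were nearly without reads in the other libraries (lower panel). WT TM 4 reached 164 abu reads and osm-3 TM 1 reached 76, while the other 14 libraries held 3 to 32; the mean of the low genes was 5.64 reads in WT TM 4 and at most 0.797 elsewhere.

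Single abu genes followed the same course. abu-8 had 105 reads in all, the highest number of any abu gene, of which 39 lay in WT TM 4 and 18 in osm-3 TM 1, with 0 to 7 in each other library. abu-15 had 32 of its 52 reads in WT TM 4, abu-7 had 35 of 70 and abu-6 had 26 of 71. The 7 reads of abu-3, annotated as a pseudogene, all lay in WT TM 4. In osm-3 TM 1 the gene with the most reads was abu-10, with 26 reads against 0 to 7 in every other library, followed by abu-8 and by abu-1 with 12. The most reads lay in WT TM 4 for 6 of the 8 genes and in osm-3 TM 1 for the other 2, abu-1 and abu-10. The last member, abu-2, had 27 reads, 12 of them in WT TM 4.

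Of the abu genes, 4 sit together in the genome (coordinates of WBcel235). abu-15 (chromosome V, 5158602 to 5159907), abu-6 (5160678 to 5161892) and abu-7 (5163270 to 5164782) are separated by 770 and 1377 bases, and abu-8 (5192995 to 5194608) lies 28212 bases further on. These genes are close paralogs, so that reads they share may have been divided among them in the counting. The values of single genes are therefore less certain than their sum. Reads shared with abu or pqn genes that are not rows of the table could change the sum as well, which was not checked. abu-1 (V, 10380340 to 10381826) and pqn-2 (10382442 to 10384063) are divergent neighbours 615 bases apart, and pqn-2 too had its most reads in WT TM 4 (16) and the next most in osm-3 TM 1 (10). The remaining abu genes lie on chromosome X.

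The high value of WT TM 4 was not a property of the abu genes only. WT TM 4 held 37.4% of the 438 abu reads (exact binomial 95% interval 32.9 to 42.2%). In the same library, genes nearly without reads elsewhere had a median of 5.14 reads per kb of exon and a 90th percentile of 15.8, and 7 abu genes with an annotated length had a median of 22.3 reads per kb, between 3.15 and 25.6. The median of the abu genes thus lay above that percentile. However, none of these 7 abu genes was among the genes nearly without reads elsewhere, so that they had more reads outside WT TM 4 as well. The comparison therefore cannot show an excess of abu reads over the background of this library. The part of the library in the abu counts was not tested beyond leaving it out.

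No abu gene passed the test for TM or for genotype. In a fit of all 8347 named rows without a filter, none of the 8 abu genes passed the threshold in any of the 5 contrasts by limma, and 1 gene had an unadjusted p under 0.05 in 1 contrast (abu-1, osm-3 against WT under vehicle, log2 difference 0.23, adjusted p = 0.251). Of all rows, 1.07% were called for TM in WT in that fit, 0.0359% for TM in osm-3 mutants, 8.54% for genotype under vehicle, 14.2% for genotype under TM and 0.264% for the difference between the TM responses. The TM difference of the abu genes ranged from -0.08 to 0.15 in WT and from -0.15 to 0.17 in osm-3 mutants, on a log2 scale that is strongly compressed at such low counts. Without WT TM 4, the lowest adjusted p for TM in WT was 0.393, against 0.845 with it. At this depth a response of these genes was not detectable, which does not show that there was none.

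Among the 11 pqn genes below the filter, 6 had a median of under 10 reads. These were pqn-2 (0 to 16 reads per library), pqn-10 (1 to 15), pqn-13 (0 to 18), pqn-16 (0 to 5), pqn-26 (1 to 13) and pqn-29 (0 to 32, with 32 in WT TM 4 and at most 6 elsewhere). The others were pqn-11, a pseudogene (5 to 26 reads), pqn-25 (22 to 53), pqn-36 (18 to 54), pqn-37 (15 to 63) and pqn-32 (3 to 186). The range of pqn-32 was the widest of the 19 low members, and it was singled out for this after its values were seen.

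pqn-32 (chromosome II, 13108019 to 13110169, WBcel235) was high in osm-3 TM libraries. Its normalized reads, that is, reads divided by the size factor of the library, were 13.2, 6.70, 4.33 and 46.7 in WT vehicle and 6.96, 5.78, 5.35 and 41.9 in WT TM. They were 15.8, 70.1, 5.10 and 31.5 in osm-3 vehicle and 154, 29.9, 72.7 and 124 in osm-3 TM. The osm-3 TM libraries were the highest as a group, but osm-3 TM 2 lay below WT TM 4, so that the groups overlapped. In the fit without a filter, pqn-32 under TM exceeded its WT level in osm-3 mutants by 0.80 ± 0.19 (log2, SE; n = 4 against 4; limma, adjusted p = 0.00776), where 14.2% of all rows were called. pqn-32 was the only one of the 19 low members past the threshold there, and its adjusted p remained between 0.00177 and 0.0391 when any single TM library was left out. These fits use the same values for which pqn-32 was singled out, so they are no independent support. The other contrasts of pqn-32 did not pass, including TM in osm-3 mutants (0.58, adjusted p = 0.469) and the difference between the TM responses (0.62, adjusted p = 0.951).

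Other genes shared the library profile of pqn-32. Over the 16 libraries, the 5 tested genes with the highest Pearson correlation to its log2 values were col-17 (r = 0.96, Spearman's rho 0.88), F33D4.6 (0.95), sqt-3 (0.95, rho 0.91), acn-1 (0.95) and col-107 (0.94). Of these, col-17, sqt-3 and col-107 encode cuticle collagens, and acn-1 is needed for molting. Among molting genes, ptr-4 gave r = 0.96 (rho 0.90) and mlt-10 gave 0.87 (rho 0.73), whereas nas-36 gave 0.61, noah-1 0.35 and nas-37 0.07. The gene phat-2 of the pharynx list gave 0.84 (rho 0.73). Like pqn-32, the genes mlt-10, ptr-4, col-17 and sqt-3 had the highest level of their group in WT vehicle 4 and osm-3 vehicle 2, and their most normalized reads in osm-3 TM 1, where mlt-10 had 225, ptr-4 166, col-17 770.1 and sqt-3 860.1. That library was also the richest in reads of abu-10 and abu-1. The correlations share the same libraries and their depth, and were taken as a description only.

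pqn-32 lies wholly within rict-1, on the opposite strand. The libraries were strand-specific, and rict-1 had 734 to 2455 reads per library with a correlation to pqn-32 of -0.06, so that the profile of the host gene differed from that of pqn-32. Of the molting list, 1 of 5 genes tested was higher in osm-3 mutants under TM, mlt-10 by 0.51 ± 0.16 (adjusted p = 0.0377), and 0 were lower. The median of the list was 0.05, beside -0.10 over all genes. Of 3 hedgehog-related genes tested, 2 were higher under TM, grd-10 (0.90 ± 0.14, adjusted p = 0.000113) and grd-5 (0.45 ± 0.10, adjusted p = 0.00518), with a median of 0.45. The molting list summed to 1231 to 1498 normalized reads in WT TM and to 1337 to 1874 in osm-3 TM. The part of molting gene expression in the difference of pqn-32 was not tested.

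**Figure D2:**
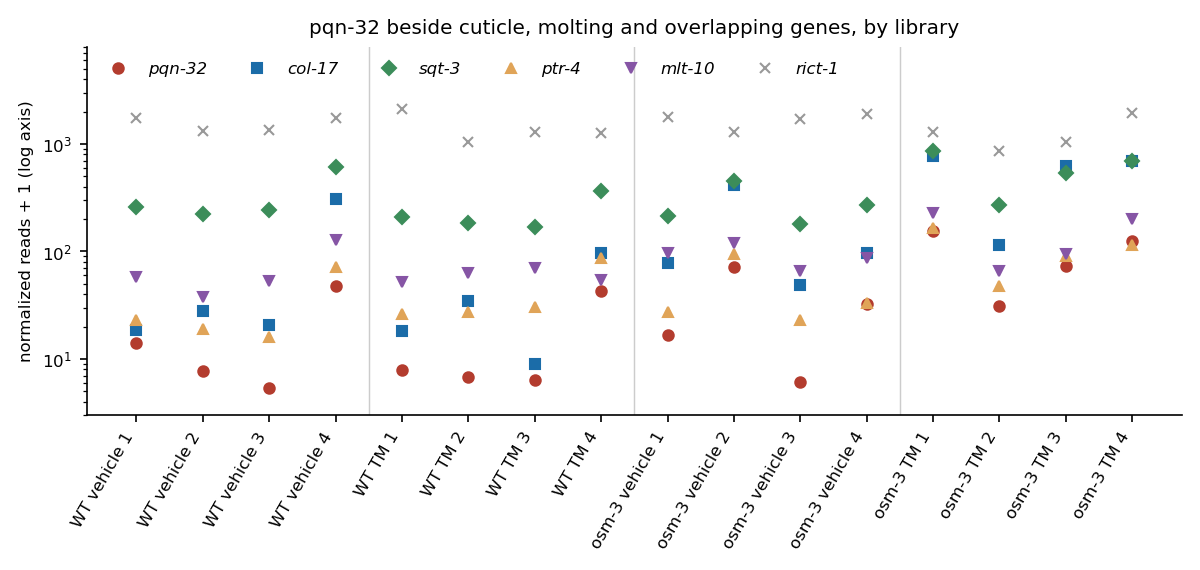
Normalized reads plus 1 (log axis) of pqn-32, the collagen genes col-17 and sqt-3, the molting genes ptr-4 and mlt-10, and rict-1, which overlaps pqn-32 on the other strand, in each library. pqn-32, col-17, sqt-3, ptr-4 and mlt-10 each had the highest value of their group in WT vehicle 4, osm-3 vehicle 2 and osm-3 TM 1, and rict-1 did not follow them.

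The 10 tested pqn genes spanned a wide range of levels. Per kb of exon, the mean normalized reads over the 16 libraries were 687 for pqn-20, 664 for pqn-22 and 526 for pqn-27, the highest of the family. They were 369 for pqn-24, 262 for pqn-21, 234.9 for pqn-31 and 124 for pqn-18, and pqn-35 (72.7), pqn-15 (44.5) and pqn-8 (41.7) closed the order. The libraries of neighbours in this order overlapped in every case, as for pqn-31 (138 to 339.7 per kb) and pqn-18 (92.7 to 154). Among all tested genes with a length, pqn-20 stood at the 68.8th percentile of level per length and pqn-8 at the 5.37th, with the other 8 between them.

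**Figure D3:**
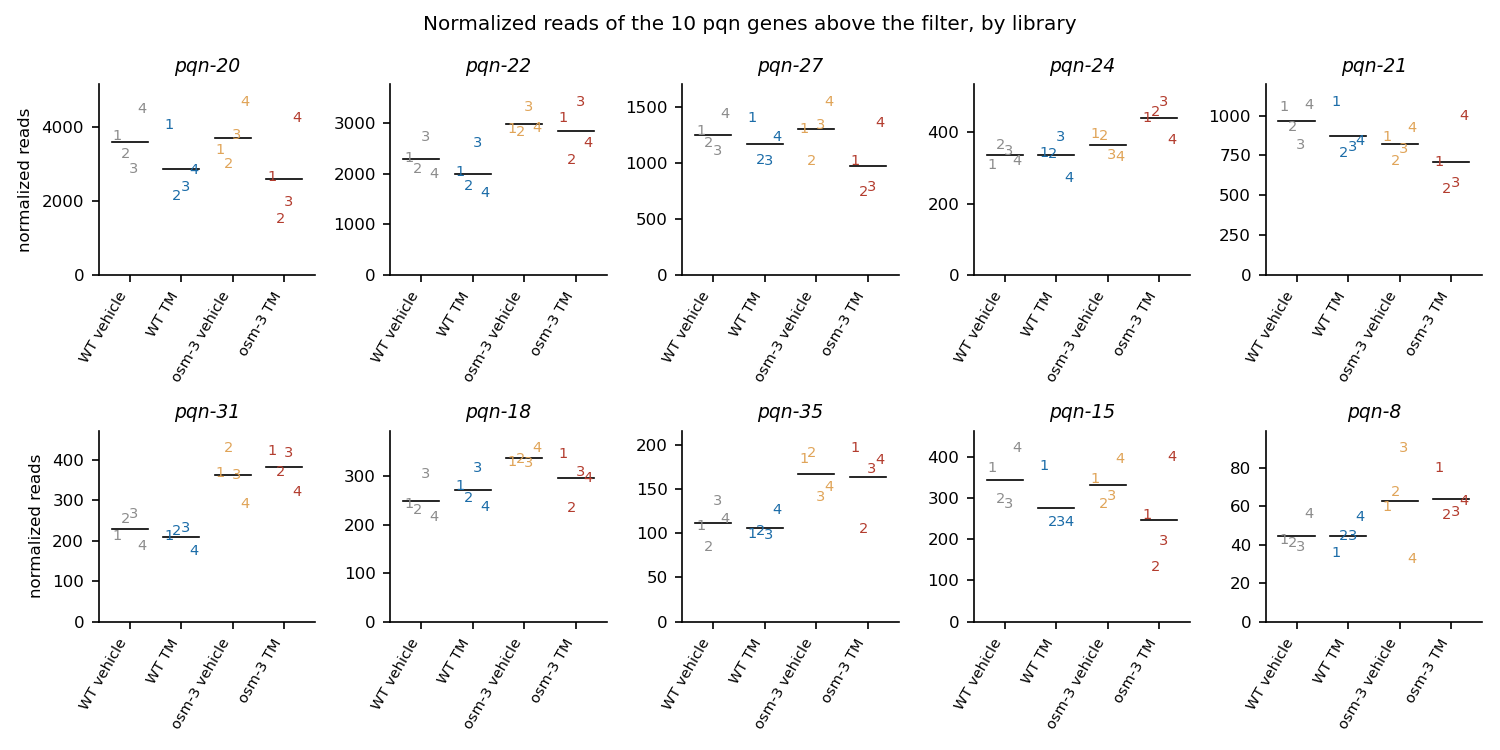
Normalized reads of the 10 tested pqn genes in each library, ordered by level per kb of exon; digits give the replicate number, horizontal lines the mean of 4 libraries, and every axis starts at 0. All 8 osm-3 libraries of pqn-31 lay above all 8 WT libraries, and pqn-20, pqn-27, pqn-21 and pqn-15 shared their high and low libraries.

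The comparison of the genotypes without stress asked whether loss of osm-3 alone changed the members. pqn-31 and pqn-18 were higher in osm-3 mutants, and none was lower. The 2 genes called are 2 of 10 members tested, where 10.6% of all genes tested were called and 6.37% were called higher. The median difference of the 10 members was 0.11, beside -0.04 over all genes. Among the marker lists, muscle and neurons lay furthest to the same side. The medians of the other lists were -0.16 for intestine, -0.06 for pharynx, -0.005 for hedgehog-related, 0.04 for germline and 0.06 for molting genes. The muscle genes unc-15 and unc-54 had a median difference of 0.56 with 0 of 2 called, and summed to 12272 to 18978 normalized reads in WT vehicle and 17850 to 26525 in osm-3 vehicle. The neuronal genes egl-3 and rab-3 had a median of 0.25 with 1 of 2 called higher (egl-3, 0.42 ± 0.11, limma, adjusted p = 0.0165, against 0.07 for rab-3), and summed to 559 to 679 and to 702 to 1005. The part of the tissues in the differences of the members was not tested.

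pqn-31 (chromosome V, 9109581 to 9111013) showed the clearest separation. In WT vehicle its normalized reads were 211, 255, 265 and 186, and in osm-3 vehicle they were 367, 428, 362 and 291. In WT TM they were 210.4, 224, 232 and 174, and in osm-3 TM they were 421, 371, 418 and 321. Every osm-3 library lay above every WT library, under either treatment. The mean was 229 ± 37.1 in WT vehicle and 362 ± 55.9 in osm-3 vehicle (SD, n = 4), a ratio of 1.58. The difference was 0.42 ± 0.09 on the deposited log2 scale (SE; limma, adjusted p = 0.00501), and 0.67 by voom on the recovered reads, since the deposited scale shrinks differences at such counts. Under TM the ratio of the means was 1.82 and the difference 0.55 ± 0.09 (adjusted p = 0.000322). Both differences passed the threshold in all 28 alternatives in which the gene was tested.

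The level of pqn-31 did not move with TM beyond the spread of its libraries. The TM difference was -0.07 in WT (95% interval -0.27 to 0.12) and 0.06 in osm-3 mutants (-0.14 to 0.25), and the difference between the TM responses was 0.13 (-0.15 to 0.41; adjusted p = 0.904). In order of the mean, the groups ran WT TM, WT vehicle, osm-3 vehicle and osm-3 TM, with neighbours of the same genotype within their spread.

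pqn-18 (chromosome X, 12907832 to 12920260) differed between genotypes on vehicle plates by a small margin. Its normalized reads were 242, 229.7, 304 and 215 in WT vehicle and 328, 335, 327 and 357 in osm-3 vehicle, and the groups did not overlap. Higher values without overlap were found in 4 members under vehicle, pqn-31, pqn-18, pqn-22 and pqn-35, where 9.26% of all genes tested had them. The difference of pqn-18 was 0.29 ± 0.09 (adjusted p = 0.0370), and it missed the threshold when any single one of 7 of the 8 vehicle libraries was left out, WT vehicle 3 being the exception, at adjusted p of 0.0695 to 0.120, which left 1 member called. In those 7 fits 315 to 381 of all 4115 genes tested were called. Under TM pqn-18 read 280.0, 256, 316 and 237 in WT and 347, 234, 309 and 297 in osm-3 mutants, which overlapped (0.08, adjusted p = 0.516).

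The genes pqn-22 and pqn-35 were separated under vehicle as well but missed the threshold. pqn-22 read 2315, 2101, 2721 and 2003 in WT vehicle and 2871, 2823, 3307 and 2895 in osm-3 vehicle, a difference of 0.36 ± 0.14 (adjusted p = 0.119). pqn-35 read 108, 84.2, 136 and 117 in WT vehicle and 184, 191, 141 and 153 in osm-3 vehicle, a difference of 0.30 ± 0.10 (adjusted p = 0.0568). With the replicate number as a block, which pairs the vehicle libraries of the genotypes, 4 members passed in place of 2, pqn-22 at adjusted p = 0.00567 and pqn-35 at 0.0344 being added. Of all 4115 genes tested, 735 were called with the block and 438 without it. pqn-35 (chromosome II, 4612994 to 4626107) spans clec-136, clec-137, clec-138 and clec-139 on the opposite strand.

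Under TM the same comparison asked whether the genotypes differed in stressed animals. pqn-31, pqn-22, pqn-24 and pqn-35 were higher in osm-3 mutants, and none was lower. These are 4 of 10 members, where 19.2% of all genes tested were called and 9.5% were called higher, and the median of the members was 0.13 beside -0.10 over all genes. Only pqn-31 and pqn-8 had groups without overlap, against 7.53% of all genes higher in this way. For pqn-8 this is no support, since it passed the filter only through its osm-3 groups. The number called was 2 without WT TM 2 or WT TM 4 and 1 without osm-3 TM 1 or osm-3 TM 3, all of them higher. In these fits 510 to 748 of all 4115 genes tested were called. Without osm-3 TM 4 the number of members called was 6, of which 4 were higher and 2 lower, pqn-21 (-0.41, adjusted p = 0.0116) and pqn-27 (-0.39, adjusted p = 0.0291). pqn-31 was in each case among them. The muscle genes had a median difference of 0.31 under TM (summed normalized reads 8424 to 19734 in WT and 10119 to 19155 in osm-3 mutants) and the neuronal genes of 0.19 (533 to 649 and 612 to 869), with 0 of 2 called in each. The medians of the other marker lists were -0.23 for germline, -0.21 for intestine, -0.15 for pharynx, 0.05 for molting and 0.45 for hedgehog-related genes. The part of the tissues in the differences of the members was not tested.

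pqn-22 (chromosome IV, 6019672 to 6033639) read 2025, 1749.9, 2608 and 1622 in WT TM and 3102, 2271, 3416 and 2600.0 in osm-3 TM. The groups overlapped by WT TM 3, and the difference was 0.47 ± 0.14 (adjusted p = 0.0241), lost when any single one of 4 TM libraries was left out, at adjusted p of up to 0.0909. pqn-24 (chromosome I, 4564035 to 4565982) read 343, 338, 386 and 272 in WT TM and 438, 455, 485 and 377 in osm-3 TM, with an overlap of a single library on each side. Its difference was 0.27 ± 0.08 (adjusted p = 0.0256), lost when WT TM 4, osm-3 TM 1, osm-3 TM 2 or osm-3 TM 3 was left out (0.0516 to 0.0846) and when only the TM groups were fitted (0.124). In vehicle animals the difference was 0.08 (adjusted p = 0.651), with 308, 365, 347 and 318 reads in WT and 394, 389, 335 and 332 in osm-3 mutants. The difference of pqn-24 between the TM responses was 0.20 ± 0.12 (adjusted p = 0.904), so that its genotype difference was not shown to depend on TM.

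pqn-35 read 99.1, 102, 98.0 and 127 in WT TM and 196, 105, 172 and 184 in osm-3 TM, where osm-3 TM 2 fell among the WT libraries. The difference was 0.30 ± 0.10 on the deposited scale (ratio of the means 1.54, adjusted p = 0.0369), close to the 0.30 found under vehicle, and it was lost when any single one of 5 of the 8 TM libraries was left out. pqn-8 (chromosome III, 9996197 to 9997990), the lowest tested member, read 35.6, 44.6, 44.5 and 54.3 in WT TM and 80.1, 55.6, 57.0 and 62.9 in osm-3 TM. Its groups did not overlap, but the difference of 0.17 on the deposited scale (ratio of the means 1.43) did not pass (adjusted p = 0.159), and under vehicle osm-3 vehicle 4 lay lowest of all 8 libraries at 32.5.

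**Figure D4:**
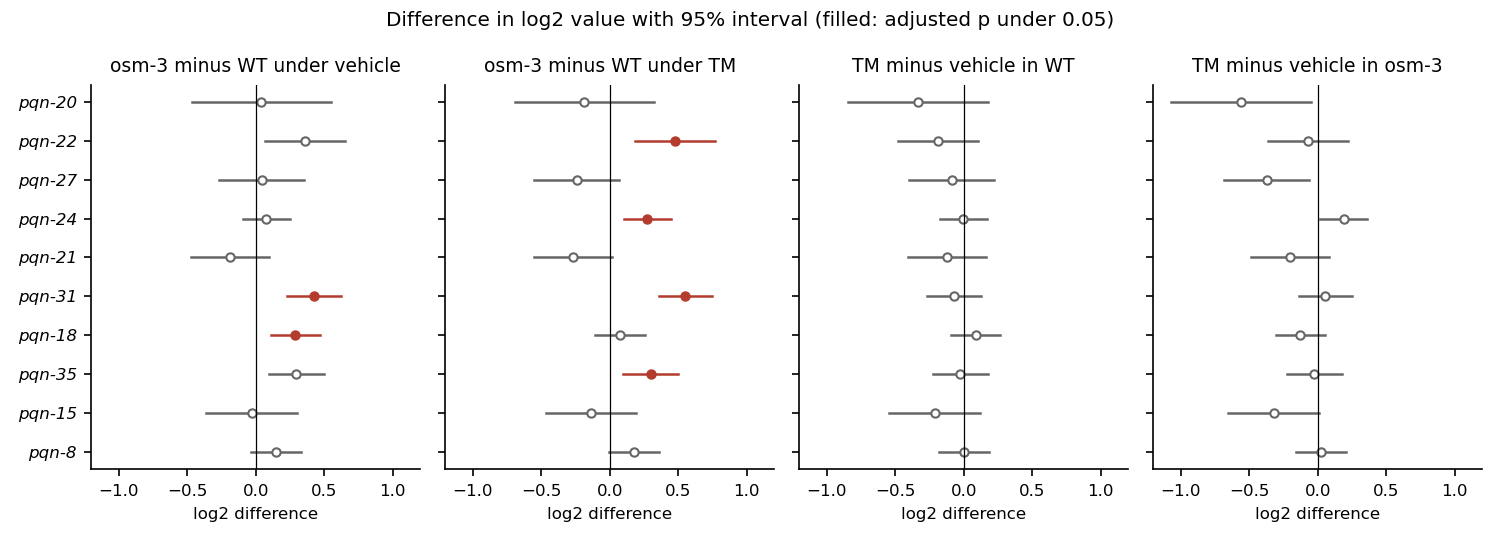
Log2 differences of the 10 tested pqn genes with 95% intervals (bars) in the 4 contrasts between groups; filled red points passed an adjusted p of 0.05 and open points did not. pqn-31 passed in both genotype contrasts (0.42 under vehicle and 0.55 under TM), and no gene passed in either TM contrast.

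None of the 10 members passed the test for TM in either genotype. In WT, 0 of 10 passed, where 1.56% of all genes tested were called, and 0 had an unadjusted p under 0.05. The members' differences ran from -0.33 to 0.09 with a median of -0.08, beside -0.02 over all genes. In osm-3 mutants 0 of 10 passed as well, where 0.0729% of all genes were called, and 3 had an unadjusted p under 0.05, namely pqn-20 (-0.56), pqn-27 (-0.37) and pqn-24 (0.19), each at adjusted p = 0.362. The median there was -0.10, beside -0.04 over all genes. The difference between the TM responses was called for 0 of 10 members, where 0.486% of all genes were called, and for 0 at an unadjusted p under 0.05. By voom on the recovered reads the count was also 0 in these 3 contrasts. Without osm-3 TM 4, 5 members passed for TM in osm-3 mutants, 4 lower (pqn-15, pqn-20, pqn-21 and pqn-27) and 1 higher (pqn-24). In that fit 793 of all 4115 genes tested were called, against 3 with all libraries.

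The 4 genes pqn-15, pqn-20, pqn-21 and pqn-27 were high and low in the same libraries. pqn-20 (chromosome I, 6790978 to 6798161), the most abundant member, read 3765, 3279, 2871 and 4489.7 in WT vehicle and 4062, 2143, 2388 and 2854 in WT TM. In osm-3 mutants it read 3377, 2993, 3785 and 4689 on vehicle and 2654, 1505, 1985 and 4252 with TM. The osm-3 TM group held the lowest library of all, osm-3 TM 2, and osm-3 TM 4, which lay above 3 of the 4 WT vehicle libraries, so that its SD was 1198 around a mean of 2599 normalized reads. pqn-27 read 1022, 747, 789.6 and 1358 in osm-3 TM, with the same libraries low and high.

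After the group means were removed, the log2 values of these 4 genes correlated with each other at r = 0.92 to 0.96 over the 16 libraries (rho 0.91 to 0.96). pqn-18 with pqn-22 gave 0.84 and pqn-24 with pqn-31 gave 0.79, whereas the 4 genes were opposed to pqn-24 and pqn-31, at r of -0.72 to -0.46. pqn-20 and pqn-21 are neighbours, 10826 bases apart on chromosome I, while pqn-15 lies on X and pqn-27 on II. The non-member genes most like pqn-20 were tlk-1 (r = 0.99), pole-1 (0.99), sel-2 (0.99), trr-1 (0.99) and btf-1 (0.99).

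**Figure D5:**
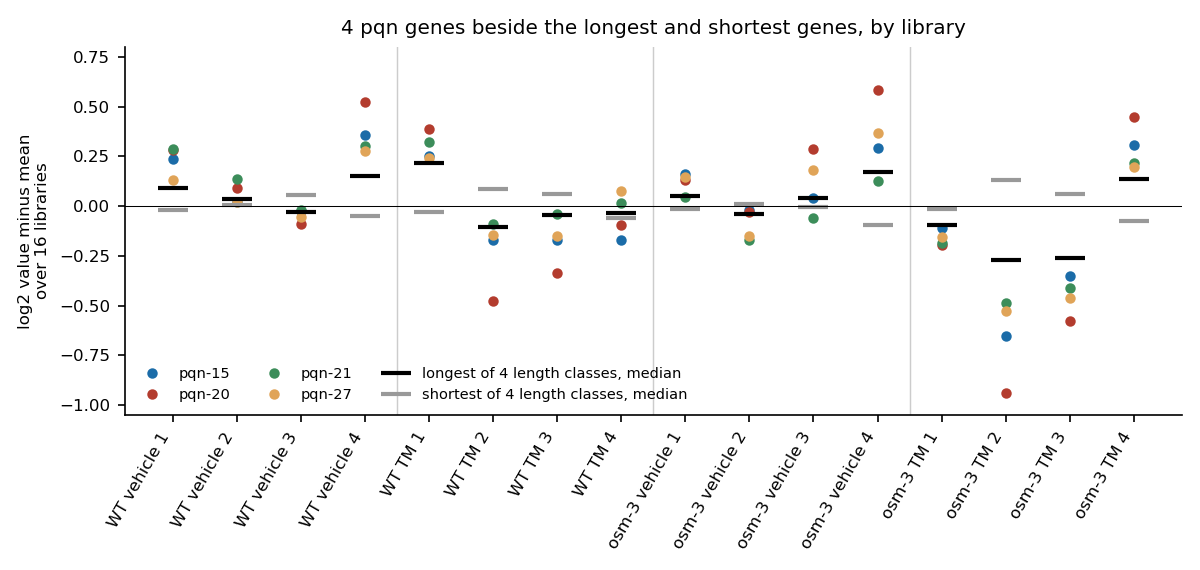
Log2 values of pqn-15, pqn-20, pqn-21 and pqn-27 in each library, minus the mean of the gene over 16 libraries (points), with the median of the same measure over the longest and the shortest of 4 equal classes of tested genes by exon length (bars). All 4 genes were low in osm-3 TM 2 and osm-3 TM 3 and high in WT vehicle 4, osm-3 vehicle 4, WT TM 1 and osm-3 TM 4, and the longest genes moved the same way.

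Long transcripts as a class moved with these 4 genes, whose exons sum to between 2239 and 6742 bases. When the tested genes were divided into 4 equal classes by exon length, the class with the longest exons (2230 bases or more) had a median deviation of -0.27 in osm-3 TM 2, -0.26 in osm-3 TM 3, 0.21 in WT TM 1 and 0.14 in osm-3 TM 4, and over the 16 libraries this median followed that of the 4 pqn genes at r = 0.98 (rho 0.98). The median of the 5 germline genes followed it at r = 0.96. The members pqn-22 (3804 bases) and pqn-18 (2324 bases) are as long as this class but did not follow the 4 genes. After the group means were removed, pqn-22 correlated with them at r of -0.17 to -0.01 and pqn-18 at 0.05 to 0.22. The class with the shortest exons (960.0 bases or less) had 0.13 in osm-3 TM 2 and -0.08 in osm-3 TM 4. After a trend over exon length was taken from each library, the deviations of the 4 genes still correlated at 0.58 to 0.94, and the TM difference of pqn-20 in osm-3 mutants was -0.36 ± 0.15 in place of -0.56 ± 0.24. That of pqn-15 was -0.08 in place of -0.32. The part of RNA quality or germline content in these values was not tested.

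pqn-31, whose exons sum to 1260 bases, ran opposite to these 4 genes from library to library. After the same correction for exon length its genotype difference was 0.45 under vehicle (limma, adjusted p = 0.00171) and 0.59 under TM (adjusted p = 8.33e-05). The genes most like it were F35B12.3 (r = 0.95, rho 0.92), C53B7.3 (0.95), C27D6.12 (0.95), C05D11.5 (0.95) and F18E3.12 (0.94), and pqn-22 was most like mrp-3 (0.94), D2092.4 (0.93) and unc-96 (0.93).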

How the data were processed

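Whole-animal RNA was depleted of rRNA and sequenced from strand-specific libraries. Per the labels, the authors used kallisto 0.43.0-1 and WBCel235 transcripts. The authors then used DESeq2 1.16.1, and the deposited values are variance-stabilized log2 values. They were inverted to normalized counts, and 100% of these, times a size factor, came within 0.01 of whole reads. Rows without a gene name held 0.177 to 0.531% of reads and were left out. The authors' 4 tables of comparisons, which hold fold changes and p-values, were not used.

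Log2 values of 4115 genes with a mean at least 1 above the table minimum were fitted with limma 3.58.1 (R 4.3.3; 1 mean per group, 16 libraries, 12 residual degrees of freedom, eBayes with trend), and p-values were adjusted by Benjamini-Hochberg over all genes tested with a threshold of 0.05. The script was tested on simulated data. Tests are two-sided. Members were named where they passed the threshold, were among the 3 highest per length, or, below the filter, by their read range; pqn-32, pqn-8 and the genes set beside them were chosen after their values were seen. The members and lists were chosen with earlier results of these data known. The planned list of genes most like the cysteine-rich members needed a protein table and was not made. Gene positions and exon lengths came from Ensembl 115 (WBcel235; 27 members, 8069 of 8347 names matched) and, for abu-3 and pqn-11, RefSeq.

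Same-numbered libraries deviated together between treatments within each genotype (r of 0.255 to 0.859) and between genotypes under vehicle (0.182 to 0.501), so that the replicate number pairs libraries in these comparisons. Between genotypes under TM the pairing was uneven, at 0.644 and 0.62 for replicates 2 and 3 but -0.04 and 0.03 for replicates 1 and 4. The study calls the libraries biological replicates. Alternatives were other filters, samples in the fit, a replicate block, variance models, library weights, normalizations, scales and leaving out each library; leaving out both libraries rich in abu reads and a correction for exon length (loess; 98.7% of tested genes had a length) were added after seeing the data.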

Additional observations from a re-analysis of the deposited data

Results flagged for a closer look

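In 12 values (10 tested pqn genes, pqn-32 and the summed abu genes), each group of 4 libraries was screened with Dixon's ratio for a single outlying library. Of 48 groups, 5 held one, and chance gives about 1 in 20. The summed normalized reads of the abu genes were 156 in WT TM 4, against 2.67 to 9.56 in the other WT TM libraries. In the same library the log2 value of pqn-32 was 7.59, against 7.01 to 7.05, and that of pqn-35 was 8.21, against 8.04 to 8.06. The log2 value of pqn-15 in WT TM 1 was 9.14, against 8.72 in each of the other 3. The log2 value of pqn-22 in osm-3 vehicle 3, the library with the fewest reads, was 11.78, against 11.56 to 11.60.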

How the results depend on the processing

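The number of members called was read against its alternatives. For osm-3 against WT under vehicle (2 called), it was 4 when only the groups compared were fitted and 4 with a replicate block. It was 7 with library weights (6 higher and 1 lower, pqn-21 at -0.23, limma adjusted p = 0.0155), and it ran from 1 to 3 when single libraries were left out. Of all 4115 genes tested, 642 were called with only the groups compared, 735 with the block and 1420 with the weights, against 438 in the main fit. A filter at 3 log2 units left 4 members and gave 0, but it left out pqn-31 and pqn-18, the 2 members called. Under TM (4 called), the number of members called was 1 with the filter at 3, which left out pqn-31, pqn-24 and pqn-35. It was 1 with only the groups compared and 1 without both libraries richest in abu reads, where 401 and 492 of all 4115 genes were called, against 792 in the main fit. It was 5 with the replicate block (4 higher and 1 lower, pqn-21 at -0.27, adjusted p = 0.0411), whose numbers pair these libraries unevenly, and from 1 to 6 when single libraries were left out, 2 of the 6 being lower. For TM in WT (0 called), library weights gave 3, all lower, and all leave-outs gave 0. Of all genes tested, 595 were called with the weights, against 64 in the main fit. For TM in osm-3 mutants (0 called), library weights gave 5, 4 of them lower, and the leave-outs 0 to 5. Of all genes tested, 1423 were called with the weights and 793 without osm-3 TM 4, against 3 in the main fit. For the difference between the TM responses the number of members called stayed at 0 under each. The replicate block changed no other count of calls, and the cause of these changes was not tested. Of 26 single differences larger than their standard error, 1 changed sign, pqn-18 for TM in osm-3 mutants, at 0.0082 with library weights. Of 24 smaller differences, 66 of 674 alternative fits had the other sign. Library weights ran from 0.252 (osm-3 TM 4) to 5.11 (osm-3 vehicle 1). Depth limits the 19 members below the filter most, since 8 of them, the abu genes, had 7 to 105 reads over all libraries.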
